A study of Mus musculus with 11 samples.

Results

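The translation factors and aminoacyl-tRNA synthetases were the genes of initiation (Eif1 to Eif6), elongation (Eef1 and Eef2), termination (Etf1 and the Gspt genes) and of tRNA charging that the deposited table listed. They were found by gene symbol, and 45 of the 7868 listed genes were members. The rule left out the interferon-induced kinase gene Eif2ak2, which was not listed in any case. Colon tissue came from 11 female wild-type mice, 4 kept naive and 7 treated with the carcinogen azoxymethane (AOM) and with dextran sulfate sodium (DSS), an irritant that damages the epithelium of the colon. AOM was injected at 10 mg/kg, DSS followed from day 7 at 1.5% in the drinking water for 3 cycles of 5 days, each with 16 days of recovery, and mice were killed on day 70. The comparison shows how genes of the translation machinery stood in tissue of this colitis-associated tumor model against naive colon. The line above the table calls the AOM/DSS material tumor and the naive material full-thickness colon, while the labels call both colon tissue. The ages of these mice were not given in the labels.

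Translation begins when initiation factors bring the initiator tRNA, the small ribosomal subunit and a capped mRNA together. Elongation factors then deliver charged tRNAs and move the ribosome along, and release factors free the finished protein. Aminoacyl-tRNA synthetases attach each amino acid to its tRNA. The cytosol and the mitochondria of mouse cells largely use separate synthetases, which are encoded by separate nuclear genes. In the intestine, rapid renewal of the epithelium, secretion and immune activation are known to draw on this machinery.

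Values are the authors' means over each group, normalized by a method that is not given in the labels, from libraries that read only the 3′ end of each mRNA. Values per mouse were not analysed here, so no SD, interval or test stands beside them, and the depth per library is unknown. The table was limited to genes with an unadjusted p of 0.05 or less between the groups. Being listed therefore already used this comparison, and the counts of members below are a description only. A gene that is not listed is not called unchanged, since no value of it was analysed here. A ratio of 1.5 either way was used to describe sizes. In bulk tissue, fewer cells of a type and less RNA per cell cannot be told apart.

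The listed cytosolic synthetases were higher and the listed mitochondrial synthetases lower in AOM/DSS tissue. All 8 listed cytosolic synthetase genes had the higher mean in AOM/DSS, with log2 ratios of 0.32 to 0.84, and all 5 listed mitochondrial synthetase genes had the lower, with log2 ratios of −0.78 to −0.37. Centring log2 ratios on the median of all listed genes lowered each of them by 0.44. Rars and Aars then turned to slightly lower, while genes already lower, as all listed mitochondrial synthetases were, could not change direction. The listed genes with means of at least 10 in each group, the level of 36 members, had a median of −0.23. Centring on that lower median would raise every ratio and was not run. Among initiation factors 14 were higher and 6 lower, but centring turned Eif1ad, Eif1b, Eif3g, Eif4g2, Eif5a and Eif6 to lower and the median log2 ratio of the class from 0.33 to −0.11. The abundant elongation factors Eef2 and Eef1b2 were lower.

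Of the 45 members, 29 were higher and 16 lower in AOM/DSS, against 57.3% higher among all listed genes. At least 1.5-fold higher were 14 members, which is 14 of 45 beside 43.7% of all listed genes, and 5 members were at least 1.5-fold lower beside 28.6%. Centred on the median of all listed genes, these counts became 3 higher and 16 lower, so the balance between the directions depends on the scaling. Only 3 members were 2-fold or more higher (Eif4e3, Eif4a3l2 and Eef1akmt3) and 1 was 2-fold or more lower (Eef1a2). Most members are abundant, and the means of 36 reached 10 in each group. Of these 36, 66.7% were higher, against 49.3% of the 3991 listed genes at that level. In the same order, 30.6% were at least 1.5-fold higher, against 24.4%, and 5.56% were at least 1.5-fold lower, against 24.4%. The median log2 ratio of those 36 was 0.37 and that of the 3991 genes was −0.23.

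Not all of the machinery was listed. Of 108 protein-coding genes that match the rule in the GENCODE M21 annotation of the same mouse build (mm10), 42 were listed (38.9%), against 30.6% of all protein-coding genes. The other 3 members were Eef1aknmt, which that annotation does not hold under this symbol, the processed pseudogene Eif3s6-ps1, a copy of Eif3e, and Eif4a3l2, a copy of Eif4a3 that RefSeq holds as a pseudogene. Eif4a3l2 had means of 1.50 in AOM/DSS and 0.682 in naive tissue, and Eif3s6-ps1 of 4.21 and 7.35. Each of these copies lay on the same side as its parent gene, and reads of a copy and its parent may have been exchanged in counting, so both are uncertain.

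**Figure D1:**
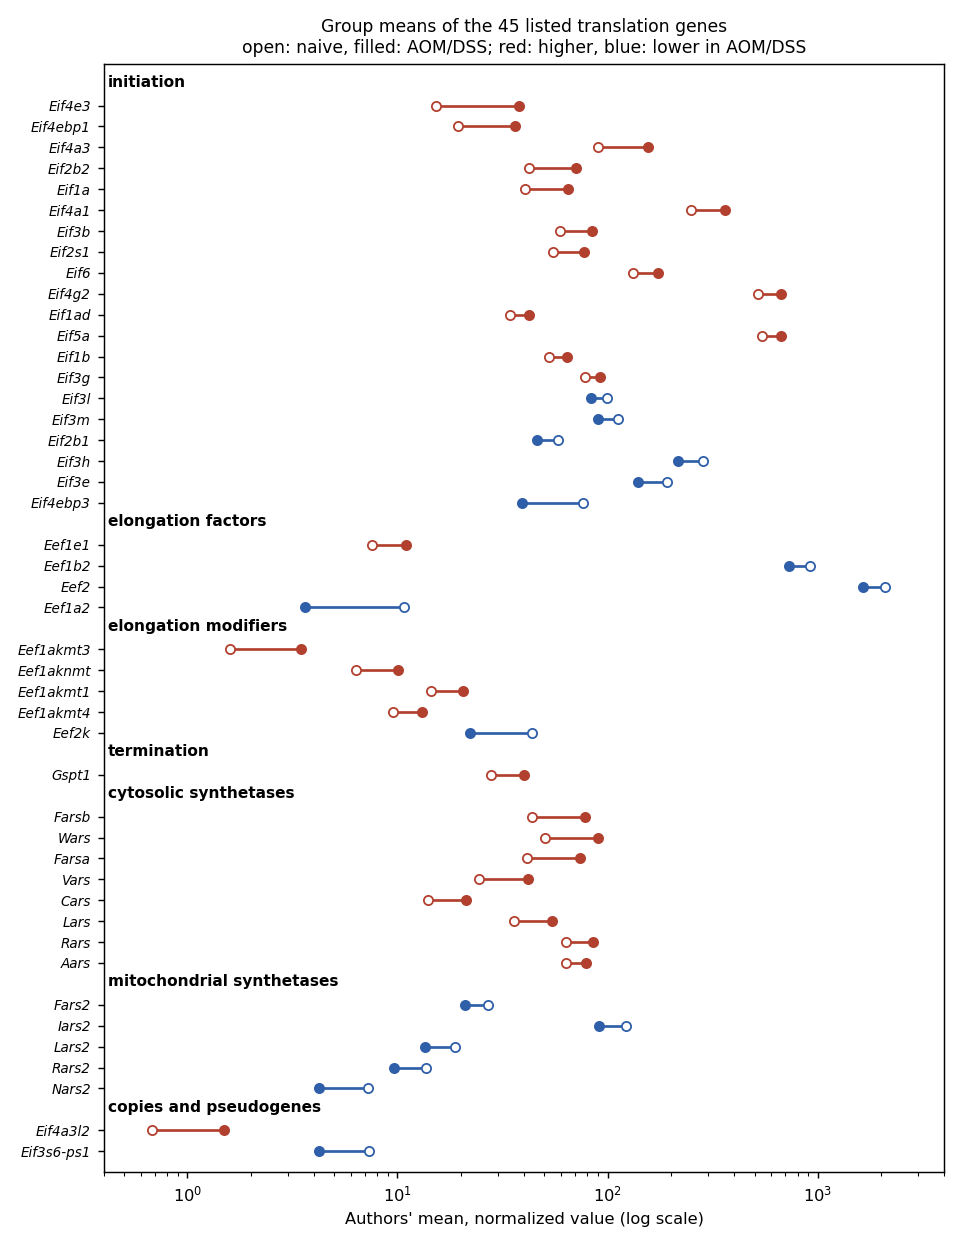
The authors' means of all 45 listed members on a log axis, with naive tissue as open and AOM/DSS tissue as filled points joined by a line, red where AOM/DSS was higher and blue where it was lower. The 8 cytosolic synthetases are all red and the 5 mitochondrial ones all blue, and the widest gap is that of Eef1a2, with means of 3.65 and 10.8.

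Cytosolic phenylalanyl-tRNA synthetase is built from products of a pair of genes, and both were higher by nearly the same factor. Farsb, which encodes the beta subunit (chromosome 1, 78417975 to 78488897 in mm10), had means of 78.1 in AOM/DSS and 43.6 in naive tissue, 1.79-fold higher. Farsa, the alpha subunit (chromosome 8, 84856989 to 84869257), had means of 73.9 and 41.5, 1.78-fold higher. The ratio of Farsa to Farsb was 0.946 in AOM/DSS and 0.951 in naive tissue, so the balance between the subunit genes was almost the same in both. Fars2, the mitochondrial phenylalanyl enzyme, is encoded by 1 gene and stood at 20.8 against 27.0, 1.29-fold lower. The ratio of Farsb to Fars2 was accordingly 3.75 in AOM/DSS and 1.62 in naive tissue.

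Wars, which charges the tRNA of tryptophan and is known in human cells as an interferon-γ-induced gene (chromosome 12, 108860030 to 108894174), had means of 90.0 and 50.4, 1.79-fold higher. Vars, the valyl enzyme, stood at 41.6 against 24.5, 1.70-fold higher. Cars, the cysteinyl enzyme, had means of 21.2 and 13.9 and was 1.52-fold higher. These 3 enzymes act outside the multi-synthetase complex, as do Farsa, Farsb and the alanyl enzyme Aars.

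Lars and Rars, the leucyl and arginyl enzymes, belong to the multi-synthetase complex that holds several synthetases together. Lars had means of 54.5 in AOM/DSS and 35.8 in naive tissue, 1.52-fold higher, and Rars had means of 85.4 and 63.1, 1.36-fold higher. Eef1e1, which is named as an elongation factor but encodes a scaffold protein of this complex, stood at 11.03 against 7.55, 1.46-fold higher. The 3 listed genes were all higher, and the other 8 genes of the complex (Eprs, Iars, Mars, Qars, Kars, Dars and the scaffold genes Aimp1 and Aimp2) were not listed. The share listed was 27.3%, against 30.6% of all protein-coding genes, so the direction of the complex as a whole is not known. Aars had the smallest difference of the cytosolic enzymes, with means of 79.2 and 63.4 and a log2 ratio of 0.32. Of 21 cytosolic synthetase genes annotated, 13 were not listed, among them Gars and Kars, whose products serve both compartments. The 8 that were listed are 38.1% of the class, against the same 30.6%.

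The mitochondrial enzymes were lower by similar factors, although their levels spread widely. Iars2, the isoleucyl enzyme (chromosome 1, 185284726 to 185329396), was the most abundant, at 90.8 in AOM/DSS and 122.8 in naive tissue, 1.35-fold lower. Lars2, the leucyl enzyme, had means of 13.6 and 18.8, 1.39-fold lower. Rars2, the arginyl enzyme, had means of 9.59 and 13.7, 1.43-fold lower. Nars2, the asparaginyl enzyme, had the lowest level, at 4.22 against 7.22, and was 1.71-fold lower. Both enzymes were listed for 3 amino acids, phenylalanine, leucine and arginine, and in each of these the cytosolic gene was higher and the mitochondrial gene lower. The ratio of Lars to Lars2 was 4.02 in AOM/DSS and 1.91 in naive tissue, and that of Rars to Rars2 was 8.91 and 4.61. The other 10 of 15 mitochondrial synthetase genes were not listed, so 33.3% were listed, near the 30.6% of all protein-coding genes.

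**Figure D2:**
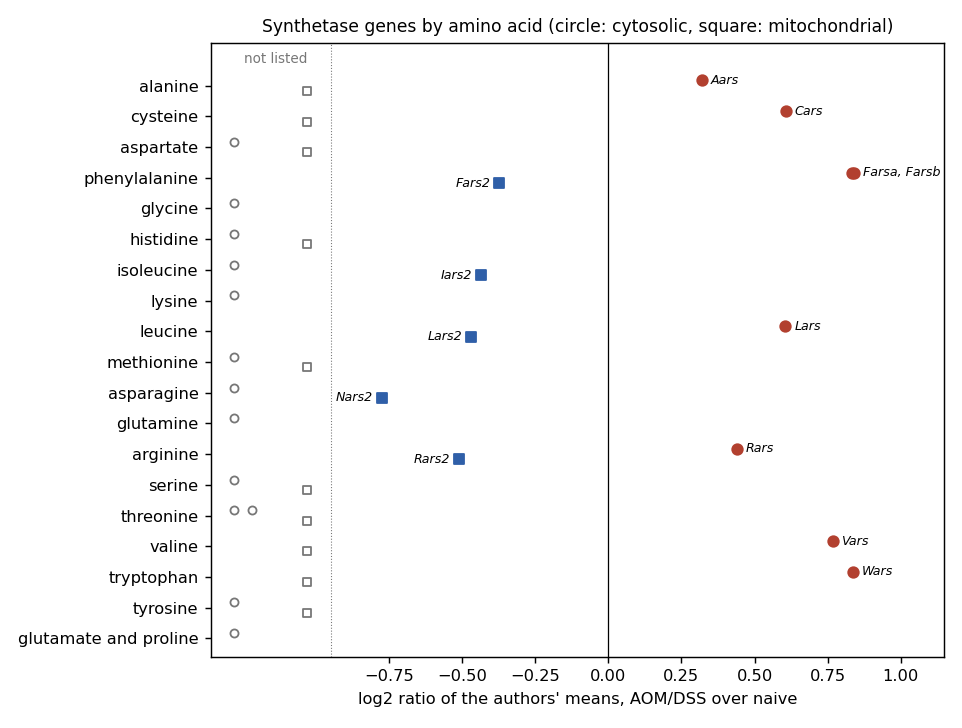
Log2 ratio of the authors' means, AOM/DSS over naive, for each synthetase gene by amino acid, with circles for cytosolic and squares for mitochondrial enzymes, and open grey marks at the left for genes that were not listed. The listed cytosolic genes lie between 0.32 and 0.84 and the listed mitochondrial genes between −0.78 and −0.37. Listing used this same comparison, and 13 of 21 cytosolic and 10 of 15 mitochondrial genes have no value, so the gap describes listed genes only. Of all listed genes 57.3% were higher.

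Promoter sequences show which of these genes carry letters that known regulators of synthetase genes read. RefSeq promoters (GRCm38.p6, 250 bases before to 50 after each start) matched 28 of the 45 members by symbol. TGATGNAA, the core of the amino acid response element bound by ATF4, was searched on both strands, and so was CACGTG, the E-box bound by Myc and related factors, which reads the same on both. TGATGNAA was found in 2 of the 28 genes (7.14%), against 4.51% of all 27025 genes with a promoter, and CACGTG in 9 of the 28 (32.1%), against 8.09% of all and 10.4% of the listed genes. No match of one motif overlapped a match of the other. The windows below read 5′ to 3′ on the strand of the gene with the match in capitals, and positions count from the start site, with the first transcribed base as 1. The first 2 are from Aars, which held both motifs, followed by matches in other members.
Aars, chr8:111033840-111033869, position 10, response element on the other strand: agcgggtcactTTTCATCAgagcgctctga
Aars, chr8:111033685-111033712, position −146, E-box: gtcaaccctgtCACGTGacactccatgt
Eef2k, chr7:120851094-120851123, position −84 of its second start, response element on the other strand: ctttctgcttgTTTCATCAagctcagcttg
Farsb, chr1:78488920-78488947, position −39, E-box: tagacaggcatCACGTGagacagcccaa
Eif4a1, chr11:69672596-69672623, position −189, E-box: gatcgcctccgCACGTGtaaaggtgctg
Eif5a, chr11:69921444-69921471, position −74, E-box: aggggcggggtCACGTGtgtgcgtcatc
Eif1b, chr9:120492571-120492598, position −24, E-box: gtgcggacggtCACGTGgcggcggcgcg
Eef2, chr10:81176577-81176604, position −43, E-box: cccggcgccgtCACGTGacgcacccaac
Eef2k, chr7:120842789-120842816, position −31, E-box: ccggggacggcCACGTGagcccgggcgt
Eef1akmt4, chr16:20611498-20611525, position −92, E-box: gacggaagttcCACGTGtttgtgtggag
Eef1aknmt, chr1:162548476-162548503, position −147, E-box: tgtggctgctgCACGTGgggcgcggacc

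By GENCODE M21, the windows of Eef1akmt4, Eef2, Eif4a1, Farsb and the E-box of Eef2k lie outside annotated genes of that strand. The windows of Aars, Eef1aknmt and Eif1b lie in a UTR of a transcript, and the response element of Eef2k and the E-box of Eif5a lie in an intron. Eif5a has a further E-box at position −178 of another annotated start. Of the 9 genes with an E-box, 7 were higher in AOM/DSS and Eef2 and Eef2k were lower. These were 7 of the 16 higher members searched (43.8%) and 2 of the 12 lower ones (16.7%), a difference that was not tested. Promoters of 3 of the 8 cytosolic and 5 of the 5 mitochondrial synthetases could be searched, too few to compare the classes. A start of C and at least 4 further C or T, as in the terminal oligopyrimidine mRNAs of ribosomal proteins, was also sought. It was found at the RefSeq start of 0 of the 28 members, 14 of 65 ribosomal protein genes (21.5%) and 3.01% of all genes. Most ribosomal protein genes were thus missed at their annotated starts, so this search cannot show that members lack such a start. All promoter results are matches of letters in a window and say nothing of whether a factor was bound.

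The listed eIF4 genes had higher means in AOM/DSS. Eif4e3, which encodes a member of the cap-binding eIF4E family (chromosome 6, 99625135 to 99666771), had the largest difference of the initiation factors, with means of 37.8 in AOM/DSS and 15.2 in naive tissue, 2.48-fold higher. Eif4a1, the helicase that unwinds mRNA leaders, stood at 362 against 249.9, 1.45-fold higher. Eif4a3, a related helicase of the exon junction complex, had means of 156 and 89.7, 1.74-fold higher. Eif4g2, a scaffold protein related to eIF4G that lacks the cap-binding protein's site, had means of 667 and 521, 1.28-fold higher. All 4 listed eIF4 genes thus had the higher mean in AOM/DSS, Eif4g2 turning to lower when centred, and the other 8 of the 12, Eif4e, Eif4g1 and Eif4b among them, were not listed.

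The genes of the 4E-binding proteins, which block eIF4E until the kinase mTORC1 phosphorylates them, went in opposite directions. Eif4ebp1 (chromosome 8, 27260329 to 27276674) stood at 36.1 in AOM/DSS and 19.5 in naive tissue, 1.85-fold higher. Eif4ebp3 had means of 39.0 and 75.9, 1.95-fold lower. The ratio of Eif4ebp1 to Eif4ebp3 was 0.927 in AOM/DSS and 0.257 in naive tissue, so the pair stood at nearly equal levels in AOM/DSS on this scale. Eif4ebp2 and Eif4enif1 were not listed. Of the alternatives tried only centring could turn a sign, and only that of Eif4ebp1, whose log2 ratio was 0.45 when centred.

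Genes that handle the initiator tRNA and the search for the start codon differed in both directions. Eif2s1 encodes the alpha subunit of eIF2, the target of the stress kinases, and stood at 77.0 against 55.1, 1.40-fold higher. Its exchange factor eIF2B was split. Eif2b2, the beta subunit, had means of 70.7 and 42.1, 1.68-fold higher, and Eif2b1, the alpha subunit that senses phosphorylated eIF2, had means of 46.2 and 58.1, 1.26-fold lower. Eif1a, a scanning factor, stood at 64.5 against 40.5, 1.59-fold higher. The other listed genes with Eif1 symbols were closer to a ratio of 1, and both turned to lower when centred. Eif1b, a paralog of the start codon factor eIF1, stood at 63.9 against 52.8 and Eif1ad at 42.1 against 34.1. The other eIF2B subunits and the kinase genes Eif2ak1, Eif2ak3 and Eif2ak4 were not listed.

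Subunits of eIF3, the large scaffold on the small ribosomal subunit, were divided. Eif3e (chromosome 15, 43250058 to 43282719) had means of 139 in AOM/DSS and 192 in naive tissue, 1.38-fold lower, and Eif3h had means of 215 and 285, 1.33-fold lower. Eif3m had means of 89.5 and 112 and Eif3l of 83.6 and 99.5, with log2 ratios of −0.32 and −0.25. Eif3b and Eif3g were instead higher, at 83.9 against 59.1 and 92.2 against 77.7. The 4 lower genes encode subunits that budding yeast lacks and the 2 higher genes encode subunits that it shares, a grouping chosen after their values were seen. The other 8 of 14 eIF3 genes were not listed, and Eif3g turned to lower when centred.

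The listed genes of eIF6 and eIF5A were slightly higher. Eif6, which keeps the large ribosomal subunit from joining too early, stood at 173 against 132, 1.31-fold higher. Eif5a, whose hypusine-bearing product eases difficult peptide bonds during elongation, had means of 665 and 542, 1.23-fold higher. Both turned to slightly lower when centred.

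**Figure D3:**
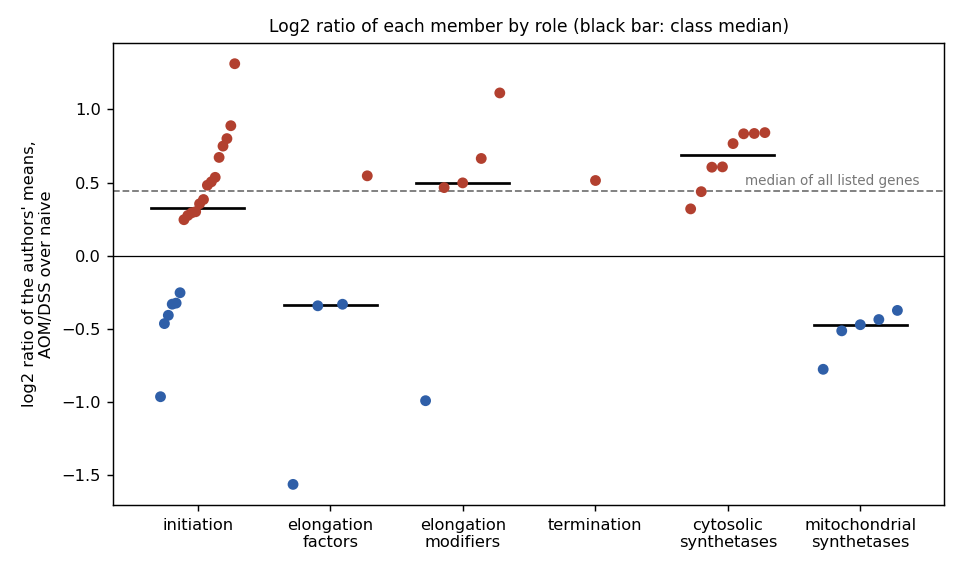
Log2 ratio of the authors' means, AOM/DSS over naive, for each member by role, with a black bar at the median of each class of at least 3 genes and a dashed line at the median of all listed genes, 0.44. The medians are 0.33 for initiation, 0.69 for cytosolic synthetases and −0.47 for mitochondrial synthetases.

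Of the 4 listed elongation factors 3 were lower, the exception being Eef1e1, the scaffold gene described above. Eef2, the translocase of the ribosome (chromosome 10, 81176631 to 81182498), was the most abundant member, with means of 1644 in AOM/DSS and 2083 in naive tissue, 1.27-fold lower. Eef1b2, an exchange factor for eEF1A, had means of 732 and 920, 1.26-fold lower. Eef1a2, the form of eEF1A known from muscle and neurons (chromosome 2, 181147653 to 181157014), had means of 3.65 and 10.8, 2.95-fold lower. This was the largest difference of any member. All 8 smooth muscle markers were lower as well, by 2.10-fold to 3.13-fold with a summed level of 4623 against 11619. The 3 listed of 6 enteric neuron markers were lower by 1.32-fold to 2.36-fold (a summed level of 24.0 against 39.6), and Snap25 and Tubb3 were among those not listed. Whether smooth muscle cells or neurons here express Eef1a2 cannot be told, and their part in its lower mean was not tested. Eef1a1, Eef1d and Eef1g were not listed.

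Of the 7 genes that modify elongation factors 5 were listed, 4 higher and 1 lower. Eef2k, the kinase that halts eEF2 (chromosome 7, 120842831 to 120907450), stood at 22.0 in AOM/DSS and 43.7 in naive tissue, 1.99-fold lower, so that enzyme and substrate were both lower. Among the eEF1A methyltransferases, Eef1aknmt had means of 10.1 and 6.36, 1.59-fold higher, and Eef1akmt3 of 3.47 and 1.60, 2.16-fold higher from a low level. Eef1akmt1 stood at 20.4 against 14.4 and Eef1akmt4 at 13.1 against 9.47, and the log2 ratios of these last genes came close to 0 when centred. The methyltransferase genes Eef1akmt2 and Eef2kmt were not listed. In termination, Gspt1, which encodes the release factor eRF3, had means of 39.8 and 27.8, 1.43-fold higher, and Etf1 and Gspt2 were not listed.

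Genes of related pathways were placed beside the members. Of 30 genes of ATF4 and the integrated stress response, the program that raises amino acid supply when eIF2 is phosphorylated, 19 were listed. Of these 17 were higher, 13 of them by at least 1.5-fold, and 2 were lower (Cth and Ddit3), with a median log2 ratio of 1.38. Over all listed genes 57.3% were higher, 43.7% by at least 1.5-fold, with a median log2 ratio of 0.44. The share listed was 63.3%, against 30.6% of all protein-coding genes, for a list written with earlier results known. Pycr1, an enzyme of proline synthesis, stood at 54.2 against 3.79, 14.3-fold higher, and Slc7a11, the cystine transporter, at 19.7 against 1.45, 13.6-fold higher. Slc7a5, a leucine transporter, was 5.20-fold higher, Slc1a4 3.79-fold, and the serine synthesis genes Psat1 and Phgdh 3.75-fold and 3.28-fold. Cebpb, which encodes a partner of ATF4, was 3.49-fold higher, and Cth, which makes cysteine, was 3.57-fold lower (4.82 against 17.2). Atf4 itself stood at 220 against 171 and Asns, the asparagine synthetase gene, at 31.1 against 17.5.

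Of 26 genes of the mTORC1 pathway, 10 were listed, 4 higher and 6 lower. Deptor, an mTOR inhibitor, was 2.24-fold lower (160 against 359), and Pdcd4, which blocks eIF4A, was 2.35-fold lower (87.4 against 205). The Myc network had 3 of 12 genes listed (Mnt higher, Mxd4 and Mlxip lower), and Myc was not listed. Of 14 further genes of mitochondrial translation, 3 were listed (Gfm2, Mtif2 and Mtrf1l), which is 21.4%, against 30.6% of all protein-coding genes. These 3 were lower by 1.47-fold to 1.76-fold, on the same side as the listed mitochondrial synthetases. Of 24 other translation genes, Pelo was listed as higher (6.25 against 3.08) and Paip2b as lower (14.2 against 20.7). Of 85 genes with symbols of cytosolic ribosomal proteins 32 were listed (37.6%), 29 of them lower, with a median log2 ratio of −0.32. The median of the 4 genes with elongation factor symbols was −0.34. Their values ran from −1.56 to 0.55, the highest being that of the scaffold gene Eef1e1. The 11 listed of 12 interferon response genes (all but Eif2ak2) were all higher, against 57.3% of all listed genes. They were higher by 2.20-fold to 257-fold, beside the 1.79-fold of Wars. The largest ratios were those of the chemokines Cxcl9 (70.6 against 0.275) and Cxcl10 (33.3 against 0.882) and of Ido1 (23.3 against 0.366), which breaks down tryptophan, the amino acid that Wars uses. Gbp2 (119 against 13.7), Isg15 (99.6 against 14.6), Ifit1 (35.0 against 6.19) and Gbp3 (25.9 against 4.71) followed.

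**Figure D4:**
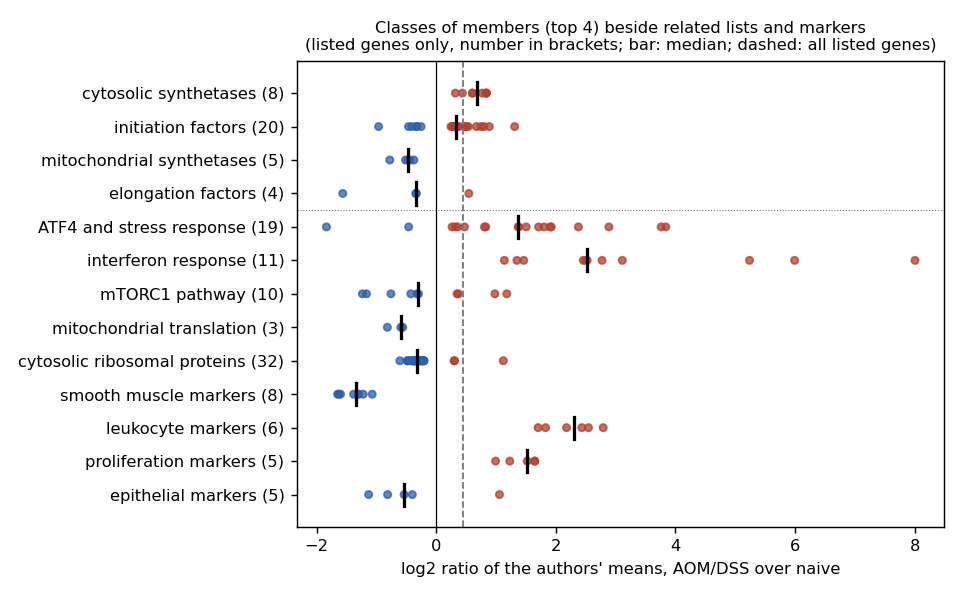
Log2 ratio of the authors' means, AOM/DSS over naive, for 4 classes of members and for related lists and cell type markers, listed genes only, with black bars at medians. The medians of the cytosolic ribosomal proteins (−0.32) and of the elongation factors (−0.34) lie below 0. The elongation factors are only 4 genes, and the scaffold gene Eef1e1 among them lies at 0.55. Eef1a2, in the row of the elongation factors, has a value (−1.56) within the range of the smooth muscle markers (−1.65 to −1.07), which have their own row.

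The makeup of the tissue also differed between the groups. Leukocyte markers were higher in 6 of 6 cases, with a summed level of 560 against 124, as were 6 of 6 B and plasma cell markers (1949 against 268). Among all listed genes 57.3% were higher. The 5 listed of 8 proliferation markers were higher (302 against 116), and 2 of 6 fibroblast markers were listed, both higher. Of 9 epithelial markers 5 were listed, 4 lower and Cdx2 higher (4500 against 7106 in sum), and Epcam, Krt18, Krt20 and Cdh1 were not listed. The epithelial markers Krt8, Krt19 and Vil1 and all smooth muscle markers were present in both groups, as the label of colon tissue implies. The part of these cell types in the members' differences was not tested.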

How the data were processed

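The series profiled colon tissue of 11 mice by 3′ mRNA sequencing (QuantSeq). Reads were trimmed and aligned to mm10 with STAR 2.5.3a by the authors, who then quantified them to Ensembl release 102 in Partek Flow 10.0.23.0720, normalized the gene counts and compared the groups by gene-specific analysis. The submitters' processing notes also name cutadapt. How the counts were normalized is not given in the sources used here. Per gene, the deposited table holds a normalized signal as the authors' least-squares mean over each group, with 0.0001 standing for 0 (no member), and no value per sample. It also holds the deposited p-value, FDR and fold of the authors' own comparison. These were not used, save that the p-value column was read to test that the table ends at 0.05. The replicate error therefore could not be computed here.

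The ratio of the AOM/DSS mean to the naive mean was taken with no pseudocount and no filter (Python 3.11.15, pandas 2.3.3). Members and lists were chosen with earlier results of these data known. Every member is named. Of the related lists, genes at least 2-fold apart with a mean of at least 10 in the higher group were given with values, at most 8 per list. Others named were chosen after their values were seen. Gene positions are from GENCODE M21 and promoters from RefSeq. The calculation was tested on simulated data. Alternatives were pseudocounts of 0.1 and 1, filters on low means, fold limits of 1.25 and 2, centring, and leaving out both copies. Some items of the lists and 1 promoter window are not reported here.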

Additional observations from a re-analysis of the deposited data

How the results depend on the processing

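No paired analysis was possible because the table holds a mean per group and no columns per sample, and leaving out single mice was not run for the same reason. Counting Kars and Gars with the mitochondrial synthetases was not run, since neither is listed. Members at least 1.5-fold higher (14) and lower (5) became 3 and 1 with a fold limit of 2, and 24 and 15 with the more lenient limit. With a mean of at least 10 in the higher group, 3 lower members remained past 1.5-fold. Centring on the median of all listed genes, a log2 shift of 0.44, left 3 members at least 1.5-fold higher and 16 lower. Over the 3991 listed genes whose means reached 10 in each group the median was −0.23, and centring on it, which would raise every ratio, was not run. When centred, the median log2 ratio was 0.24 for cytosolic synthetases, −0.91 for mitochondrial synthetases, −0.78 for elongation factors, 0.056 for elongation modifiers and −0.11 for initiation, the last reversed from 0.33. Centring turned 8 members that were higher, Rars (−0.0041), Aars (−0.12), Eif1ad (−0.14), Eif1b (−0.17), Eif3g (−0.20), Eif4g2 (−0.087), Eif5a (−0.15) and Eif6 (−0.058). A pseudocount of 1 moved 5 low members by more than 0.1 in log2 ratio and one of 0.1 moved 1, while a pseudocount cannot change which group is higher. Leaving out both copies, chosen after seeing the data, left 13 higher and 4 lower members past 1.5-fold. Precision is limited by the lack of values per mouse and by an unknown depth.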
